A study of Homo sapiens with 10 samples.

Results

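The lamin and high mobility group (HMG) genes described here are 10 genes of the nuclear lamina and of chromatin, chosen by symbol: LMNB1, LMNB2, LMNA, LBR, TMPO, EMD, HMGB1, HMGB2, HMGB3 and HMGN2. The rule is a list of names with no threshold on a measured value, but the list was drawn up with earlier results of these data known. All 10 were found among the 11258 genes listed in both the RNA-Seq and the Ribo-Seq table, and all 10 passed the filter on low values, a level of 5 FPKM or more in some RNA-Seq and some Ribo-Seq library, which left 7015 tested genes. FPKM is the number of fragments scaled to transcript length and library size. The cells were BJ cells, human fibroblasts immortalised with telomerase (hTERT) and grown in serum, and every group shared that background. They were left untreated (control, 0 h) or treated with nutlin-3a, an inhibitor of MDM2 that activates p53, for 2, 4, 6 or 19 h. Poly(A) RNA was sequenced for RNA level, and ribosome-protected fragments were sequenced for ribosome density, so that there were 5 libraries per assay and 10 in all. Each group was 1 library, so no value has a replicate check, no p-value is given, and every error below is a counting error only. The working name of the set speaks of proteins lost in senescence, but the assays measured RNA and footprints, the longest treatment was 19 h, and LMNA and EMD were not lost in either assay.

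The nuclear lamina is a meshwork under the inner nuclear membrane, built from A-type lamins (lamins A and C, both from LMNA) and B-type lamins (from LMNB1 and LMNB2), and it anchors heterochromatin through membrane proteins such as the lamin B receptor. HMG proteins are abundant non-histone chromatin proteins, of which the HMGB group bends DNA and the HMGN group binds nucleosomes. Loss of lamin B1 and of HMGB2 is widely used as a mark of senescent cells in culture.

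Treatment and cell type could be read from the libraries themselves. Summed RNA level of 11 fibroblast markers lay between 8985 and 11624 FPKM, whereas that of the endothelial markers listed was at most 0.377 FPKM and that of the blood cell markers between 1.18 and 1.56 FPKM. Of 5 endothelial markers listed 2 had values, and neither reached 1 FPKM in any library. Of 6 blood cell markers 3 had values, and 1 of these reached 1 FPKM. Of 6 epithelial markers 4 had values and 2, KRT8 and KRT18, reached 1 FPKM, and the list summed to 243 to 327 FPKM. CDKN1A, the p53 target that inhibits cyclin-dependent kinases, went from 68.6 FPKM of RNA in the control to 1316 FPKM at 19 h, and MDM2 went from 14.9 to 259 FPKM. Total reads recovered from the spacing of the values were about 23845560 to 27554287 for RNA-Seq and 7744900 to 14460726 for Ribo-Seq, whose shallowest library was that of 19 h. The 2 most abundant transcripts took 14.7% of the Ribo-Seq reads of the control, 4.61% at 4 h and 12.5% at 19 h, against 1.9 to 2.41% in RNA-Seq. In Ribo-Seq they were ZNF354B and TMC5 in the control and at 19 h, and ZNF354B and ACTB at 4 h.

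LMNB1 (ENSG00000113368), which encodes lamin B1, had the deepest loss of RNA of the 10 genes at 6 and 19 h. RNA stood at 58.8 FPKM in the control and 50.3, 28.8, 4.24 and 1.79 FPKM at 2, 4, 6 and 19 h of nutlin-3a. Its ribosome density was 48.7 FPKM in the control and 56.7, 27.5, 5.11 and 1.08 FPKM at the same times. Both assays were high at 0 and 2 h, intermediate at 4 h and low at 6 and 19 h, and the 19 h density rests on 24 reads against 1650 in the control. At 19 h RNA was 32.9-fold lower than in the control, a log2 change of -5.04 ± 0.13 (counting SE), and density was 45.3-fold lower, -5.50 ± 0.30. In density HMGB2 was lower at 6 h (-3.36 against -3.26 for LMNB1), and at 19 h these 2 genes differed by less than their counting error. In RNA level LMNB1 stood above 83.5% of tested genes in the control and above 1.7% of them at 19 h. In bulk cultures, fewer cells that express a gene and less RNA per cell cannot be told apart.

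**Figure D1:**
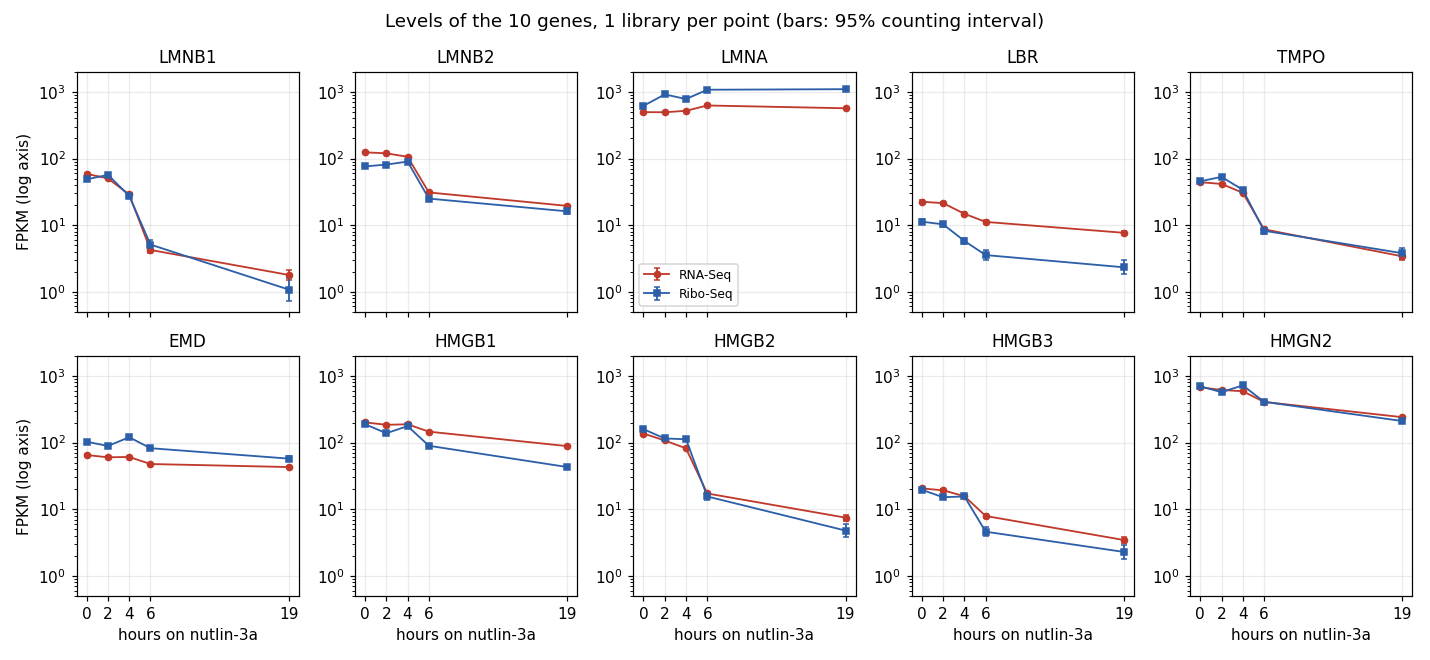
FPKM on a log axis (vertical) against hours on nutlin-3a (horizontal) for the 10 genes, with red circles for RNA-Seq, blue squares for Ribo-Seq, 1 library per point and bars for the 95% counting interval. LMNB1, LMNB2, TMPO and HMGB2 drop steeply between 4 and 6 h in both assays, while LMNA stays between 495 and 626 FPKM of RNA.

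The RNA time course of LMNB1 had its largest step between 4 and 6 h, when RNA fell 6.81-fold (log2 step -2.77 ± 0.08). Of the 7015 tested genes, 13 had a larger fall of RNA over those hours and 55 a larger fall of density. In density the step from 4 to 6 h, -2.43 ± 0.13, and the step from 6 to 19 h, -2.24 ± 0.32, were not apart given these errors. The change at 4 h, -1.03 in RNA, was just past a 2-fold difference and its 95% counting interval ran from -1.10 to -0.95, so that it lay on both sides of the threshold. From 6 to 19 h the RNA was lower by a further 2.37-fold. With a floor of 5 FPKM in place of 1 FPKM the 19 h change of RNA became -3.56, since the 6 and 19 h levels lie under that floor.

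LMNB2 (ENSG00000176619), the gene of lamin B2, fell later and less. The 5 RNA-Seq libraries gave 124, 120, 106, 30.9 and 19.5 FPKM in the control and at 2, 4, 6 and 19 h. Its density was 76.1, 81.1, 90.0, 25.0 and 16.1 FPKM in the same order. The first 3 libraries of each assay were high and the last 2 low, and the 4 h library was much nearer to the control than to 6 h. At 19 h the log2 change was -2.67 ± 0.03 in RNA, 6.37-fold lower, and -2.24 ± 0.06 in density. The changes of RNA of LMNB1 and LMNB2 at 19 h differed by -2.37 ± 0.13, which exceeds their counting error.

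LMNA (ENSG00000160789), the gene of lamins A and C, was not lower at any time in RNA beyond 0.01 on the log2 scale. RNA-Seq gave 498, 495, 520, 626 and 568 FPKM in the control and at 2, 4, 6 and 19 h, a range of less than 1.3-fold. Its density was 617, 918, 782, 1078 and 1100 FPKM, so the control library was the lowest of the 5. At 19 h the log2 change was 0.19 ± 0.01 in RNA and 0.83 ± 0.01 in density, both short of 2-fold. Against the 2 h library in place of the control, the density change at 19 h was 0.26, so its size depends on which early library is the baseline. Centred on the median of all tested genes, it was 1.03, just past 2-fold. Since 1 isoform per gene was quantified, lamins A and C were not separated.

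The lamin make-up therefore shifted toward the A type in both assays. LMNB1 and LMNB2 together made up 26.9% ± 0.18, 25.6%, 20.6%, 5.32% and 3.61% ± 0.07 of the summed lamin FPKM of RNA in the control and after 2, 4, 6 and 19 h. Their share of lamin ribosome density was 16.8% ± 0.21, 13.1%, 13.1%, 2.72% and 1.54% ± 0.06 at the same times. For every FPKM of LMNB1 RNA there were 8.46 FPKM of LMNA RNA in the control and 318 at 19 h, and in Ribo-Seq the ratio went from 12.7 to 1021. The total lamin FPKM of RNA moved less, from 680 to 589, because LMNA was most of it throughout. The total of lamin ribosome density moved the other way, from 742 to 1117 FPKM, and against 1056 FPKM at 2 h it was little higher.

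**Figure D2:**
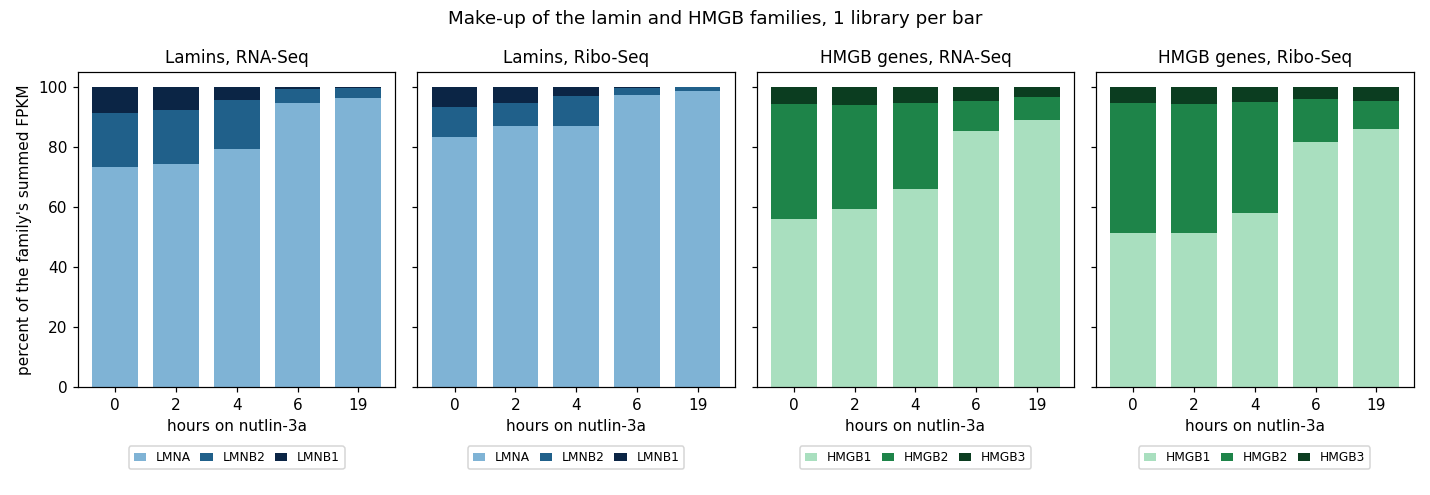
Share of each gene (vertical axis, percent of the summed FPKM of its family) at each time on nutlin-3a (horizontal axis, hours), for the lamins (left pair) and the HMGB genes (right pair), 1 library per bar. The B-type lamin share shrinks from 26.9% to 3.61% in RNA-Seq, and the HMGB2 share from 38.2% to 7.51%, with the larger part of both shifts between 4 and 6 h.

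Of the 3 genes of the inner nuclear membrane, TMPO and LBR fell and EMD did not pass 2-fold. TMPO (ENSG00000120802) encodes the lamina-associated polypeptides 2, which tether lamins and chromatin. The RNA was at 44.1, 41.5, 30.6, 8.65 and 3.40 FPKM in the control and at 2, 4, 6 and 19 h, and its density was 45.6, 53.02, 33.9, 8.24 and 3.79 FPKM. As for LMNB1, the libraries ran from high at 0 and 2 h through an intermediate level at 4 h to low values. At 19 h the log2 change was -3.70 ± 0.08 in RNA (12.98-fold lower) and -3.59 ± 0.14 in density (12.03-fold lower), so the 2 assays differed by less than their counting error.

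LBR (ENSG00000143815), the lamin B receptor, which binds B-type lamins and heterochromatin protein 1, fell gradually. In RNA-Seq it was at 22.4, 21.4, 14.8, 11.2 and 7.67 FPKM in the control and at 2, 4, 6 and 19 h. Its density was 11.3, 10.3, 5.79, 3.55 and 2.33 FPKM, the lowest of the 10 genes in the control and at 2, 4 and 6 h. Each library after 2 h was lower than the one before it, and the steps of RNA from 2 to 4, 4 to 6 and 6 to 19 h were -0.53, -0.41 and -0.54. The log2 change at 19 h was -1.55 ± 0.06 in RNA and -2.28 ± 0.19 in density. At 6 h the RNA change was -1.01 with an interval of -1.11 to -0.90, and it was short of 2-fold with the trend over transcript length removed (-0.90) or with the 2 h library as baseline (-0.94).

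EMD (ENSG00000102119), the gene of emerin, a membrane protein that binds lamins, had RNA levels of 65.2, 60.3, 60.9, 47.8 and 43.0 FPKM in the control and at 2, 4, 6 and 19 h. Its density was 103, 89.2, 121, 82.5 and 57.6 FPKM. The levels at 6 and 19 h were the lowest of each assay, with log2 changes at 19 h of -0.60 ± 0.05 in RNA and -0.84 ± 0.07 in density. Both lie outside counting error and under the 2-fold threshold.

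Among the HMGB genes HMGB2 fell most. HMGB2 (ENSG00000164104), a DNA-bending protein most abundant in dividing cells, had RNA levels of 137, 108, 82.1, 17.3 and 7.48 FPKM in the control and at 2, 4, 6 and 19 h. Its density was 159, 116, 112, 15.6 and 4.79 FPKM. Every nutlin-3a library was below the control in both assays, and at 2 h the RNA change of -0.35 was lower than that of all but 1.55% of tested genes. At 19 h RNA was 18.3-fold lower (-4.20 ± 0.08) and density 33.3-fold lower (-5.06 ± 0.17, from 70 reads at 19 h).

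HMGB3 (ENSG00000029993), a further member of the group, started at a lower level. Its RNA level was 20.5, 19.3, 15.7, 7.92 and 3.45 FPKM and its density 19.6, 15.1, 15.6, 4.60 and 2.29 FPKM in the control and at 2, 4, 6 and 19 h. The libraries at 6 and 19 h were the lowest of both assays, with log2 changes at 19 h of -2.57 ± 0.09 in RNA and -3.10 ± 0.19 in density.

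HMGB1 (ENSG00000189403), the most abundant of the HMGB genes here and also known as a secreted alarmin, was lower later than HMGB2. Its RNA level was 201, 185, 189, 146 and 88.7 FPKM in the control and at 2, 4, 6 and 19 h. Its density was 189, 138, 177, 89.7 and 43.0 FPKM. The RNA change was -0.46 ± 0.02 at 6 h, under 2-fold, and -1.18 ± 0.02 at 19 h, while density was already at -1.07 ± 0.03 at 6 h and reached -2.13 ± 0.04 at 19 h. With the 2 h library as baseline the 6 h density change was -0.63, short of 2-fold.

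The make-up of the HMGB group moved with these levels. HMGB2 gave 38.2% ± 0.34, 34.5%, 28.7%, 10.1% and 7.51% ± 0.37 of the summed HMGB FPKM of RNA in the control and after 2, 4, 6 and 19 h. HMGB1 went from 56.1% to 89.0% over the same libraries, and HMGB3 from 5.72% to 3.46%. The ratio of HMGB1 to HMGB2 was 1.47 in the control and 11.9 at 19 h in RNA-Seq, and 1.19 and 9.0 in Ribo-Seq. The summed FPKM of the group went from 359 to 99.6 in RNA and from 368 to 50.1 in density.

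HMGN2 (ENSG00000198830), a small nucleosome-binding protein, was the most abundant of the 10 genes in the control. Its RNA level was 677, 618.3, 591, 409 and 241 FPKM in the control and at 2, 4, 6 and 19 h, and its density was 702, 572, 725, 410 and 211 FPKM. RNA was lower in each library than in the one before it, and density was lower only from 6 h on apart from a dip at 2 h. At 19 h the log2 change was -1.49 ± 0.02 in RNA and -1.73 ± 0.04 in density. HMGN2 still ranked above 97.0% of tested genes in RNA level at 19 h, against 99.2% in the control.

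Counted at 2-fold, the 10 genes were lower in a larger share than tested genes as a whole from 6 h on, a count that describes a list chosen with earlier results known. In RNA level 0, 1, 6 and 8 of the 10 were at least 2-fold lower at 2, 4, 6 and 19 h, against 0.0143%, 0.684%, 5.39% and 7.1% of all tested genes. In ribosome density 0, 0, 7 and 8 of the 10 were, against 0.128%, 0.527%, 8.04% and 14.9%. The genes past 2-fold lower at 19 h were the same 8 in both assays, all but LMNA and EMD. None of the 10 was at least 2-fold higher at 19 h in RNA or density, where 2.49% and 6.22% of tested genes were. The median change of the 10 at 19 h was -2.06 in RNA and -2.26 in density, beside -0.07 and -0.19 over all tested genes. The median of all tested genes in density was 0.10 at 4 h, so the members' density changes at 4 and 19 h are to be read relative to these shifts.

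**Figure D3:**
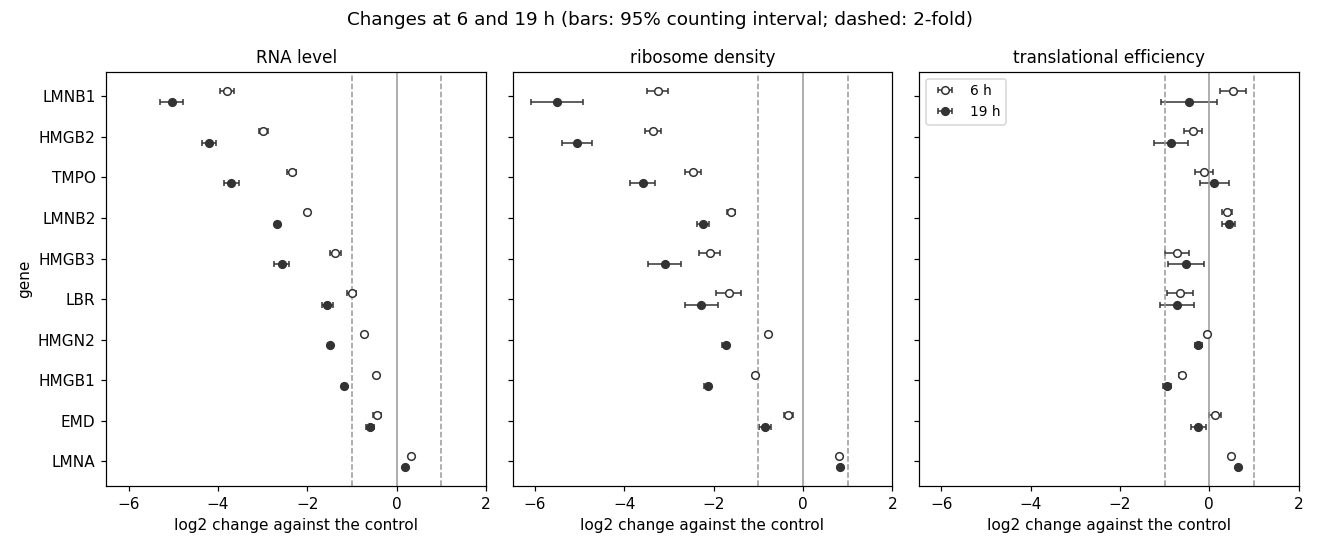
log2 change against the control library (horizontal axis) for the 10 genes (vertical axis, ordered by RNA change at 19 h) in RNA level, ribosome density and translational efficiency, with open circles for 6 h, filled circles for 19 h and bars for the 95% counting interval. In RNA and density 8 of the 10 filled circles lie left of the dashed line at -1, and in translational efficiency none does.

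The 8 genes that fell differed in how much of the 19 h change was already present at 6 h. In RNA the share was 75.3% for LMNB1, 74.9% for LMNB2, 71.3% for HMGB2, 64.96% for LBR and 63.5% for TMPO on the log2 scale. It was 53.4% for HMGB3, 48.9% for HMGN2 and 39.0% for HMGB1. The genes with RNA shares under 60% were therefore the 3 HMG genes other than HMGB2. In density this split was not seen, since the genes under 60% were LMNB1 (59.2%), HMGB1 (50.4%) and HMGN2 (44.7%), while HMGB3 stood at 67.4%. At 4 h the RNA share was highest for LBR, at 38.8%, and 20.4% for LMNB1, while the others lay between 7.99% and 17.6%.

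Translational efficiency (TE) is the log2 ratio of Ribo-Seq to RNA-Seq FPKM, and its change says how far density moved apart from RNA. None of the 10 genes was at least 2-fold lower in TE at 2, 4, 6 or 19 h, where 0.057%, 0.128%, 2.54% and 4.21% of tested genes were, and none was 2-fold higher at 19 h, where 1.94% were. At 19 h the TE change was -0.95 ± 0.05 for HMGB1, -0.86 ± 0.19 for HMGB2, -0.73 ± 0.20 for LBR and -0.53 ± 0.21 for HMGB3. It was -0.24 for both HMGN2 and EMD, 0.43 ± 0.07 for LMNB2 and 0.64 ± 0.02 for LMNA. For LMNB1 and TMPO the 95% counting intervals held 0, at -1.09 to 0.17 and -0.22 to 0.44. The TE change of HMGB1 was -1.05, past 2-fold, with the length trend removed and -0.62 with the 2 h library as baseline. Those of LBR and HMGB3 turned to 0.38 and 0.07 with a floor of 5 FPKM, which lies above the 19 h density of both and above the 19 h RNA of HMGB3, and with the 2 h baseline that of HMGB3 was -0.25. The change of LMNA was 0.06 against the 2 h library at 19 h and turned to -0.11 at 6 h.

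**Figure D4:**
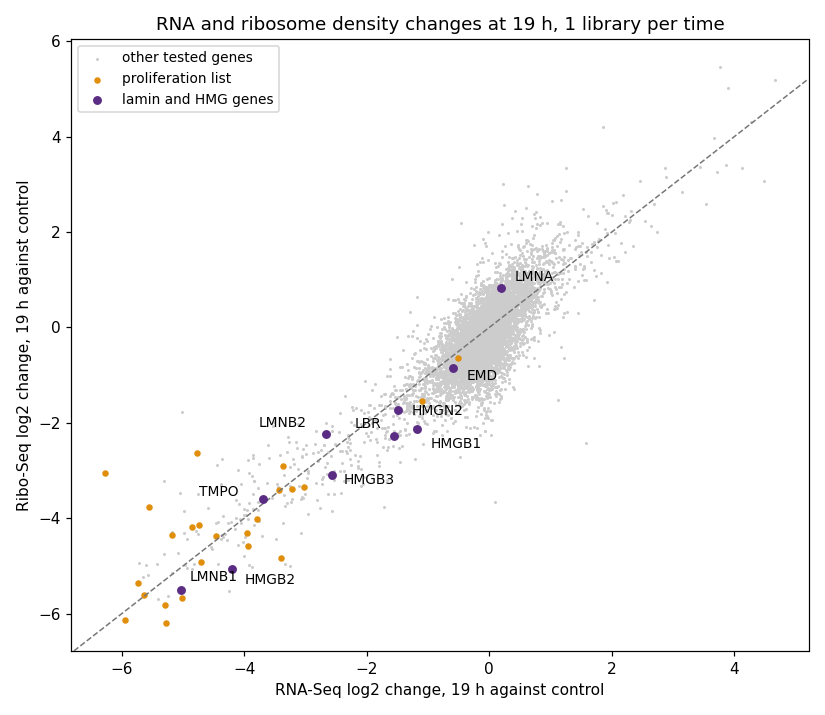
log2 change of ribosome density (vertical axis) against log2 change of RNA (horizontal axis) at 19 h against the control, with grey points for the other tested genes, orange for the proliferation list, purple for the 10 genes and a dashed line where both are equal. The fallen genes range from HMGB1 at -1.18 to LMNB1 at -5.04 in RNA. HMGB1, HMGB2, HMGB3, LBR, HMGN2 and LMNB1 lie below the line, and LMNB2 and TMPO above it. For LMNB1 and TMPO the counting interval of the distance from the line holds 0.

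In absolute TE, LBR was the lowest of the 10 in every library, with a log2 ratio of -0.99 in the control and -1.72 at 19 h, below the medians of all tested genes, -0.27 and -0.33. EMD was highest in the control at 0.66 and LMNA was highest at 19 h at 0.95. HMGB1 went from -0.09 to -1.04. TE of LMNB2 was below the median of tested genes in the control, at -0.70, and close to it at 19 h, at -0.27. The paper reports that footprints were depleted from 3′ untranslated regions. By its read shares, this depletion was weaker in its control and nutlin-3a libraries of this experiment than in its senescent and transformed libraries. The share of footprints in frame with the codons was also lower than in its other experiments. The share in 3′ untranslated regions differed between the control and the nutlin-3a libraries it lists, which may enter the TE changes and was not tested. Whether both assays were counted over the same part of a transcript is not settled. Differences in absolute TE between genes may therefore also depend on their untranslated parts, which was not tested.

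The order of the 10 genes by RNA level changed with time. In the control it was HMGN2, LMNA, HMGB1, HMGB2, LMNB2, EMD, LMNB1, TMPO, LBR and HMGB3, and all neighbours differed beyond their counting error. At 19 h it was LMNA, HMGN2, HMGB1, EMD, LMNB2, LBR, HMGB2, HMGB3, TMPO and LMNB1. The neighbours LBR and HMGB2 (7.67 and 7.48 FPKM) and HMGB3 and TMPO (3.45 and 3.40 FPKM) did not then differ beyond it. HMGB2 thus moved from the fourth to the seventh place and LMNB1 from the seventh to the last. In ribosome density LMNA was first and LMNB1 last at 19 h, and the neighbours HMGB2 and TMPO, and LBR and HMGB3, did not differ beyond counting error.

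Most pairs of the 10 genes differed in their change beyond counting error, which leaves out variation between libraries. Of 45 pairs, 43 differed in RNA change at 19 h beyond the 95% counting interval of the difference, and the other 2 pairs were LMNB2 with HMGB3 and LBR with HMGN2. In density 41 of the 45 pairs differed in this sense, and in TE 28 did. LMNB1 and HMGB2 differed in RNA change at 19 h by -0.84 ± 0.15, and in density by -0.44 ± 0.34, which is within counting error.

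Genes of the cell cycle and of DNA replication moved at the same times. Of 24 tested genes of a proliferation list, 22 were at least 2-fold lower in RNA at 6 h and 23 at 19 h, against 5.39% and 7.1% of all tested genes, with median changes of -2.90 and -4.72. The median step of the list from 4 to 6 h was -2.27, near that of HMGB2 (-2.25). The lowest RNA changes at 19 h were those of MKI67 (-6.28, with the 19 h level of 0.706 FPKM raised to the floor), RRM2 (-5.94), a subunit of ribonucleotide reductase, and CDC20 (-5.74), an activator of the anaphase-promoting complex. The highest were PCNA (-0.51), the sliding clamp of DNA replication, TYMS (-1.11) and FOXM1 (-3.02). LMNB1, HMGB2 and TMPO lay between FOXM1 and the lowest of this list, and EMD and LMNA near or above PCNA. In density the same counts were 22 and 23 of 24, against 8.04% and 14.9% of all tested genes. Whether the members' changes depend on those of this list was not tested.

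Of 19 tested genes of the nuclear envelope other than the members, 5 were at least 2-fold lower in RNA at 6 h and 6 at 19 h, larger shares than the 5.39% and 7.1% of all tested genes. The median of the list was -0.38 at 19 h, and none was at least 2-fold higher in RNA, where 2.49% of all tested genes were. The lowest were TMEM48 (-3.04), a nucleoporin of the pore membrane, TMEM194A (-2.99) and NRM (-2.46), which encodes nurim. The highest were TOR1AIP1 (0.16), LEMD2 (0.10), a protein with the LEM domain that emerin also has, and ZMPSTE24 (0.07), the protease that matures lamin A. The level of ZMPSTE24 RNA was 36.7 FPKM in the control and 38.4 FPKM at 19 h.

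The other HMG genes were mostly within 2-fold in RNA. Of 12 tested, none was past 2-fold in RNA at 6 h and 1 was lower at 19 h, SSRP1, a subunit of the histone chaperone FACT, at -1.43 (111 to 41.2 FPKM), beside 7.1% of all tested genes. HMGXB4 (-0.87) and HMG20B (-0.71) were next lowest, and BBX (0.33), HMGA2 (0.28) and HMGXB3 (0.21) highest. The median of the 12 at 19 h was -0.24, beside -4.20, -2.57, -1.49 and -1.18 for HMGB2, HMGB3, HMGN2 and HMGB1.

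Of 15 tested genes of heterochromatin and histone chaperones, 5 were at least 2-fold lower in RNA at 6 h and 5 at 19 h, again larger shares than the 5.39% and 7.1% of all tested genes. The median of the list was -0.92 at 19 h. The lowest were EZH2 (-3.23), a histone H3 lysine methyltransferase, SUV39H1 (-3.07, with the 19 h level of 0.974 FPKM raised to the floor), and CBX5 (-1.57), heterochromatin protein 1 alpha and a binding partner of LBR. HIRA (-0.05), H2AFY (-0.06) and ASF1A (-0.08) were highest. In the other direction, all 17 tested p53 targets were at least 2-fold higher in RNA at 19 h, where 2.49% of all tested genes were, from XPC (1.02), DDB2 (1.54) and PHLDA3 (1.86) to MDM2 (4.13), CDKN1A (4.26) and BTG2 (4.66).

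Of 11 tested genes of the secretory pattern of senescent cells, 1 was at least 2-fold lower in RNA at 19 h, CXCL1 (-1.60, a chemokine), and 1 was higher, SERPINE2 (1.72, a protease inhibitor), beside 7.1% lower and 2.49% higher of all tested genes. IGFBP5 (-0.45) and VEGFA (-0.29) were next lowest, and IGFBP3 (1.00) and IGFBP7 (0.60) next highest, with a median of 0.21. CXCL1 RNA was 3.29 FPKM in the control and passed the filter only through its 2 and 4 h libraries, at 10.9 and 6.19 FPKM. The listed genes that the filter removed were LIF (2.13), IL1B (1.82), IL6 (0.21) and CXCL2 (0, under the floor throughout). None of the 11 fibroblast markers was past 2-fold in RNA at 19 h, from VIM (-0.29), THY1 (-0.01) and S100A4 (0.15) to FAP (0.71), COL1A2 (0.74) and COL1A1 (0.83). In density 4 of them were at least 2-fold higher at 19 h, COL1A1 (2.31), FBN1 (2.29), COL1A2 (1.93) and PDGFRB (1.24), where 6.22% of all tested genes were. In the same order their density changes were 0.91, 1.70, 0.92 and 0.73 at 2 h and 0.01, 0.31, -0.21 and 0.20 at 4 h. The size of these rises thus depends on which early library is the baseline. FBN1 and PDGFRB are named here after their values were seen. The 2 tested epithelial markers were at -0.27 (KRT18) and 0.20 (KRT8).

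By distance over the 8 log2 changes of a gene (4 of RNA and 4 of density), the tested genes most like LMNB1 were CDCA8, CCNA2, HJURP, KIFC1 and ASF1B, at distances of 0.99 to 1.06. Their RNA changes at 19 h lay between -4.83 and -5.65, and all of them but CCNA2 were under the floor of 1 FPKM at 19 h, so those values are limited by it. Those most like HMGB2 were UBE2T, CENPA, GINS2, CDCA5 and KIF23, at 0.71 to 0.91, of which CENPA, GINS2 and CDCA5 were also under that floor. Those most like LMNA were CKAP4, OXTR, TMEM115, PPP1R10 and ZNF622, at 0.23 to 0.30, with RNA changes of 0.09 to 0.27 at 19 h. All genes were measured in the same libraries, so this likeness is a description only.

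Promoter windows from RefSeq (GRCh38.p14, 250 bases before to 50 after a start) were found for 9 of the 10 genes, in 16 windows, and not for HMGB2. The CCAAT box (CCAAT or, on the other strand, ATTGG) was in windows of 7 of the 9 genes, against 39.7% of all 27305 genes. The 7 were EMD, HMGB1, HMGB3, HMGN2, LMNA, LMNB1 and TMPO. By window, the box was in 9 of the 16, against 34.6% of all 35116 windows. LMNA and EMD, which did not fall 2-fold, were thus among the genes that had it, and LBR and LMNB2, which fell, were not. The cell-cycle homology region (CHR, TTTGAA) was in a window of HMGB1, HMGB3 and LMNB2, 3 of 16 windows against 15.2% of all. Of the E2F motifs, TTTCCCGC was in 1 window, that of LMNA (1.63% of all windows), and TTTCGCGC (0.515%) and TTTGGCGC (0.652%) were in none. The TATA motif TATAAA was in 1 window, that of HMGN2, against 11.5% of all. Both strands were searched, none of these motifs overlaps another in a window of the 9 genes, and a match or its lack is a property of these letters only.

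The 150 bases before the most upstream start are shown for 2 genes that fell, TMPO and HMGB3, and for the 2 that did not pass 2-fold, LMNA and EMD, on the plus strand and 5′ to 3′, with CCAAT in capitals. They lie at chr12:98515423-98515572 (TMPO), chrX:150983185-150983334 (HMGB3), chr1:156082423-156082572 (LMNA) and chrX:154379145-154379294 (EMD). They show 2, 3, 1 and 1 copies of the box.
TMPO: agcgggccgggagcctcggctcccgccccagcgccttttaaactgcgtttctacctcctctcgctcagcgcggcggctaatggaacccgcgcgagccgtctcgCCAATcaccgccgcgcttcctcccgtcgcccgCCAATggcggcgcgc
HMGB3: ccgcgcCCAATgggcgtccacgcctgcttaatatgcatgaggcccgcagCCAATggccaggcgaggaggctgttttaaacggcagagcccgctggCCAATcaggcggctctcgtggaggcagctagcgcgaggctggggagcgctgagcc
LMNA: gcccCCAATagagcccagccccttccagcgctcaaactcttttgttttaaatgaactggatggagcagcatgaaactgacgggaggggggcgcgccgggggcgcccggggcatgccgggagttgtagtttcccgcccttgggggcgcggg
EMD: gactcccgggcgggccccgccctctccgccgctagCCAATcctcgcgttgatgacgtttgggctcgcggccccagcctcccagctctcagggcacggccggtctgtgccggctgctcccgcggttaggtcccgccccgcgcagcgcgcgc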

How the data were processed

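RNA-Seq of poly(A) RNA and Ribo-Seq were analysed in 10 libraries, 1 per assay and time, grouped by their labels. The authors used Bowtie (version not given in the sources used here) to map reads to protein-coding transcripts of Ensembl release 65, taking 1 isoform per gene, and kept unique hits, so reads shared with near-identical copies were lost. The submitters' processing notes name the hg19 build. The FPKM values are those the authors deposited, with 3 decimals, and every column was used. The name of each table gave its assay: 1 table is named for Ribo-Seq alone, and the other, named for both assays, was taken as RNA-Seq. Of 28 histone transcripts in both tables, whose mRNAs mostly lack poly(A), 21 were under 1 FPKM in its control and 0 in that of the Ribo-Seq table. Whether Ribo-Seq values include reads outside the coding sequence is not settled by the files. The study describes an effect of sequencing runs, and the labels used here name none.

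Values were floored at 1 FPKM, and genes that reached 5 FPKM in some library of both assays were tested. log2 changes were taken against the control library of the same assay, TE was the log2 ratio of Ribo-Seq to RNA-Seq, and a gene was called at 2-fold. Fold changes are on the floored scale. Whole reads, library totals and transcript lengths were worked out from the steps between FPKM values for 99.9% of the 11258 transcripts (Python 3.11.15, numpy 2.4.6, pandas 2.3.3), in a procedure tested on simulated data, and gave the counting errors. Of 8597 transcripts whose length each assay fixed alone, 88.5% had the same length in both. The counting errors cover counting alone, since PCR copies cannot be told from separate molecules.

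The members and gene lists were chosen with earlier results of these data known. Named genes were the 10 members, the 3 lowest and 3 highest tested genes of each list by RNA change at 19 h, the 5 genes nearest to LMNB1, HMGB2 and LMNA, and CDKN1A and MDM2. Lists covered the nuclear envelope, other HMG genes, heterochromatin, proliferation, p53 targets, secretory genes, and fibroblast, epithelial, endothelial and blood cell markers. Older symbols in the tables, such as TMEM48, were matched through gene identifiers. The 11 alternatives tried changed the floor, filter, scaling, baseline, length trend and threshold. Protein sequences were not used here.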

Additional observations from a re-analysis of the deposited data

How the results depend on the processing

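Of 129 counts of members past the threshold under an alternative setting, 117 stayed within 1.5 times the count as reported. The exceptions were small counts. In RNA at 4 h the reported count of 1 (LMNB1) became 0 when changes were centred on the median of all tested genes, 0 with the 2 h library as baseline, 3 at a 1.5-fold threshold and 2 at a threshold sliding with level. In density at 4 h the count of 0 became 1 when centred, 1 without the 2 most abundant transcripts, 1 with the 2 h baseline, 2 at 1.5-fold and 2 with the sliding threshold. In TE the count of 0 became 3 at 6 h and 3 at 19 h at 1.5-fold, and 1 at 19 h (HMGB1) with the length trend removed. The cause was not tested, except that a lower threshold admits more genes by construction. The shares of all tested genes called under these settings are not given here, so the counts describe the members only.

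Of 810 log2 changes of single genes under an alternative, 614 stayed within their counting interval and none of the called ones changed sign. The 2 h baseline moved most, with 33 of 90 within the interval. Depth limits the lowest levels: LMNB1 had 24, LBR 68, HMGB3 63 and HMGB2 70 Ribo-Seq reads at 19 h. With a floor of 5 FPKM the TE change of LMNB1 at 19 h turned to 0.27, that of LBR to 0.38 and that of HMGB3 to 0.07. For LBR the 19 h density is then held at the floor, and for LMNB1 and HMGB3 both assays are, so that their TE at 19 h is set by the floor. No paired analysis was possible because each group is 1 library and the labels carry no replicate numbers, and no library could be left out for the same reason.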

Other observations

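Some genes of the related lists stood apart in TE at 19 h. They were chosen after their values were seen. Of 12 tested HMG genes outside the 10, HMGN3, a nucleosome-binding relative of HMGN2, was at least 2-fold lower in TE, with a change of -1.28, where 4.21% of all tested genes were. Its RNA level was 37.7 FPKM in the control and 26.5 FPKM at 19 h, a log2 change of -0.51, and its density went from 40.8 to 11.8 FPKM, -1.78. HMGN4 had a TE change of -0.78. Of 15 tested heterochromatin genes 1 was at least 2-fold lower in TE, CBX3 (heterochromatin protein 1 gamma), at -1.29, against the same 4.21%. The TE changes of HMGN3, HMGN4 and CBX3 were already -0.83, -0.33 and -0.41 at 2 h. Their size at 19 h thus depends on which early library is the baseline.

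Of 19 tested nuclear envelope genes, 2 were at least 2-fold higher in TE at 19 h, where 1.94% of all tested genes were. SUN2, which links the lamina to the cytoskeleton, had a TE change of 1.16, with an RNA change of -1.24 and a density change of -0.08. C14orf49 (SYNE3) had a TE change of 1.963, with an RNA change of -0.24 and a density change of 1.72. Its density was 3.71 FPKM in the control and 15.8 FPKM at 2 h. The TE changes of SUN2 and C14orf49 were 0.88 and 1.91 at 2 h and 0.51 and 1.01 at 4 h. Their size at 19 h thus also depends on which early library is the baseline. Over all tested genes the TE change at 19 h rose by 0.15 per doubling of transcript length.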
